A study of Mus musculus with 6 samples.

Results

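The invariant chain gene Cd74, the MHC class II chain genes H2-Aa, H2-Ab1 and H2-Eb1, the peptide exchange genes H2-DMa, H2-DMb1 and H2-DMb2, and Ciita, the class II transactivator gene, were followed in sorted long-lived plasma cells of mouse bone marrow. They were taken by gene symbol from the deposited expression table, and 8 of its 13642 genes matched. The 8 genes were chosen by symbol with their FPKM values in these same libraries already known, so their levels and age differences are a description. FPKM is the number of sequenced fragments per kilobase of gene, scaled to the mapped fragments of the library, so levels of genes of different length can be set side by side.

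RNA sequencing was done on 3 young and 3 old samples of unmodified C57BL/6J mice. The young samples were female, aged 2 to 3 months, bred at Jackson or at UCLA. The old samples were male, aged 17 to 19 months, from the colony of the National Institute on Aging, so age, sex and supplier cannot be told apart. The sort kept CD138 high cells that lacked B220, IgD, TCRb, TCRgd, CD11b and Gr-1. The labels do not say whether a sample is 1 animal or a pool, so the spread between samples may be partly technical.

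Class II molecules present peptides from endosomes to helper T cells. Each is a pair of an alpha and a beta chain, and Cd74 fills the groove of a new pair, takes it to endosomes and is cut there, last by cathepsin S, to a short peptide that H2-DM exchanges for others. B cells, dendritic cells and macrophages make class II because they make Ciita, which binds no DNA itself but joins RFX, CREB and NF-Y factors on a shared set of promoter elements, the X box and the Y box. When a B cell becomes a plasma cell, the repressor Blimp-1, product of Prdm1, shuts off Ciita and Pax5, and class II is lost from the surface. C57BL/6 mice carry a defective H2-Ea gene, so the product of H2-Eb1 has no alpha chain partner.

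Promoter letters are shown for 4 members: the chain genes H2-Aa and H2-Eb1, and the neighbouring copies H2-DMb1 and H2-DMb2, of which the second was close to absent. The 300-base windows are from RefSeq on GRCm38.p6, run from 250 bases before to 50 after the start, and are written 5′ to 3′ on the gene's strand. Windows were used for 5 of the 8 members: H2-Aa, H2-Eb1, H2-DMa, H2-DMb1 and H2-DMb2. That a member has no window here does not show that RefSeq lacks one. Capitals mark the Y box letters CTGATTGG in H2-Aa (chr17:34287774-34288073, minus strand) and, with the X box letters AGNNACNGA before them, in H2-Eb1 (chr17:34305617-34305916, plus strand). In H2-DMb1 (chr17:34152941-34153240, plus strand) they mark AGNNACNGA and the shorter Y letters GATTGG, and in H2-DMb2 (chr17:34144999-34145298, plus strand) the letters aligned to those of H2-DMb1.
H2-Aa: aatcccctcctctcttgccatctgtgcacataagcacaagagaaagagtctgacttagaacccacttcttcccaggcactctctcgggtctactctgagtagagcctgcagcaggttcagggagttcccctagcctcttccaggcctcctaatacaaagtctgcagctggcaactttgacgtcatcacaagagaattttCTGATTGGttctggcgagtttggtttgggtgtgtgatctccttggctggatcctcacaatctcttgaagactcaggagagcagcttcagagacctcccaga
H2-Eb1: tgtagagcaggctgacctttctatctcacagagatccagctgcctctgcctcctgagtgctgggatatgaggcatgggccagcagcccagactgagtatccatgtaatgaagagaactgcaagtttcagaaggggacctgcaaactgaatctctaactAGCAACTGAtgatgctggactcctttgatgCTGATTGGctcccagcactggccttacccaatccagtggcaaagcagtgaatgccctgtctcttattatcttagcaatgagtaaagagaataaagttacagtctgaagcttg
H2-DMb1: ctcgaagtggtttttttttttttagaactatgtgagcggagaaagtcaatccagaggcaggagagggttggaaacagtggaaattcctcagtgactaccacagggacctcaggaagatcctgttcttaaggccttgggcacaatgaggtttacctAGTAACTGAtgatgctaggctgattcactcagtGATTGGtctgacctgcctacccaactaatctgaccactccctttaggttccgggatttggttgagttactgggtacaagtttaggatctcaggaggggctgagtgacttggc
H2-DMb2: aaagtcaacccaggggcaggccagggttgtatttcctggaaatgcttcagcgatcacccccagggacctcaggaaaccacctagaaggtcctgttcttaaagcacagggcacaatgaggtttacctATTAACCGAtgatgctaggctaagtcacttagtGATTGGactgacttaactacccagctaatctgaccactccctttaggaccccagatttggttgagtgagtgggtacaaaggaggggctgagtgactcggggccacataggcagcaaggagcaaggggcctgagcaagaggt

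The letters AGNNACNGA followed on the same strand by GATTGG, with 5 to 40 bases between, stood in 57 of 32851 windows of this length (0.174%), searched on both strands. Those windows belonged to 53 genes, and H2-Eb1, H2-DMb1 and H2-Eb2 were the 3 with an H2 symbol. The X letters began 92 bases before the start in H2-Eb1 and 95 before it in H2-DMb1, with 23 and 24 bases between X and Y. Counted from the first X letter of H2-DMb1, the aligned H2-DMb2 letters differed by G2T and T7C, while the 6 Y letters were identical. Over the whole alignment of both windows, 210 of 342 columns were identical (61.4%). CTGATTGG alone stood in 4.10% of windows and CCAAT, which it holds on the other strand, in 37.4%. The AGNNACNGA letters alone stood in 17.7%. A match of letters is a description of the window and does not show that a factor binds there.

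The libraries were not alike in how many genes they listed at 0. Genes above 0 numbered 8934 to 10664 in young and 11310 to 12049 in old libraries. From the lowest values, a single fragment over 1 kb came to some 0.0392 to 0.0444 FPKM in young libraries and 0.0356 to 0.0371 in old ones, less where a library is deeper. Young replicate 3 was the shallowest by a small margin, with such a fragment worth 0.0444 FPKM against 0.0356 to 0.0408 elsewhere. It also had the most zeros. Of genes with a mean of 5 to 50 FPKM in the other 5 libraries it listed 10.4% at 0. That share was 0.938% to 4.90% in each of the others. Of genes with a mean of 50 FPKM or more it listed 1.16% at 0, against at most 0.315% elsewhere. The cause of these zeros was not tested. Old replicate 3 stood apart in the plasma cell genes. The 16 plasma cell markers summed to 9940 FPKM there and to between 21500 and 24950 elsewhere, and Jchain, the joining chain gene, was 7514 there and at least 16940 elsewhere. Members' differences that rest on either library are given with and without it. Sdc1, the gene of the sorted CD138, and Xbp1, the regulator of secretion, were at least 174 and 414 FPKM in every library.

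Cd74 was among the most abundant messages of these plasma cells at both ages. It was at 1370, 1298 and 1496 FPKM in young replicates 1 to 3 and at 1385, 1291 and 1028 in old replicates 1 to 3. The groups overlapped, and old replicate 3 was the lowest library. Ranked within each library, Cd74 stood between 14th and 22nd of all genes. Young libraries averaged 1388 ± 99.96 FPKM and old ones 1235 ± 185 (SD, n = 3 each). The log2 difference, old minus young on the log2(FPKM + 1) scale, was -0.18 ± 0.25 (SE, limma adjusted p = 0.910), and without old replicate 3 it was -0.05. Under quantile normalization it was 0.01, so no direction is given. Cd74 lies on chromosome 18 (60803848 to 60812652, plus strand, GRCm38), and 0 of 1750 windows of 75 bases in its transcripts occur in another gene's transcripts.

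Among the 56 genes with a mean of at least 500 FPKM, Cd74 had a coefficient of variation over the 6 libraries of 12.0%, the 5th smallest, against a median of 22.6%. Smallest of all was Ctss, at 4.26%. Ctss encodes cathepsin S, the protease that finishes the cutting of the invariant chain. It was at 1042, 1010 and 1061 FPKM in young and at 972, 1050 and 957 in old libraries. Cd74 and Ctss were therefore present at near equal level per length, with a Cd74 to Ctss ratio of 1.07 in old replicate 3 and of 1.23 to 1.43 in the other libraries.

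The chains that Cd74 accompanies were present at a far lower level than Cd74 itself. H2-Ab1, the beta chain of I-A (chromosome 17, 34257689 to 34269419, plus strand), was at 92.1, 103 and 144 FPKM in young and at 175, 166 and 56.9 in old libraries. Old replicates 1 and 2 were the highest and old replicate 3 the lowest, so the groups overlapped. Young libraries averaged 113 ± 27.4 FPKM and old ones 133 ± 65.7 (SD, n = 3), for a log2 difference of 0.09 ± 0.45 (SE, limma adjusted p = 0.987). It changed sign to between -0.05 and -0.19 without young replicate 1, old replicate 1 or old replicate 2, was 0.61 without old replicate 3, and was -0.01 under median-ratio scaling.

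H2-Eb1, the beta chain of I-E (chromosome 17, 34305867 to 34316674, plus strand), was at 45.5, 129 and 41.4 FPKM in young and at 67.4, 129 and 40.6 in old libraries. Its values within each group were as far apart as those between groups, and replicate 2 was the highest in both. Young libraries averaged 72.1 ± 49.7 FPKM and old ones 79.0 ± 45.4 (SD, n = 3), for a log2 difference of 0.18 ± 0.54 (SE, limma adjusted p = 0.972). It was -0.05, -0.12 and -0.25 without young replicate 1, young replicate 3 or old replicate 2.

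H2-Aa, the alpha chain of I-A (chromosome 17, 34282744 to 34287823, minus strand), was listed at 0 in young replicate 3. In the other 5 libraries it was at 25.1 and 37.3 FPKM (young replicates 1 and 2) and at 33.7, 20.6 and 35.2 (old replicates 1 to 3). Those 5 values overlapped between the groups. At the depth found here 1 fragment of H2-Aa was worth about 0.0117 FPKM in young replicate 3, and the smallest of the other 5 libraries' values stood for about 2201 fragments. The log2 difference was 1.59 ± 1.16 (SE, limma adjusted p = 0.854), and -0.07 without young replicate 3.

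**Figure D1:**
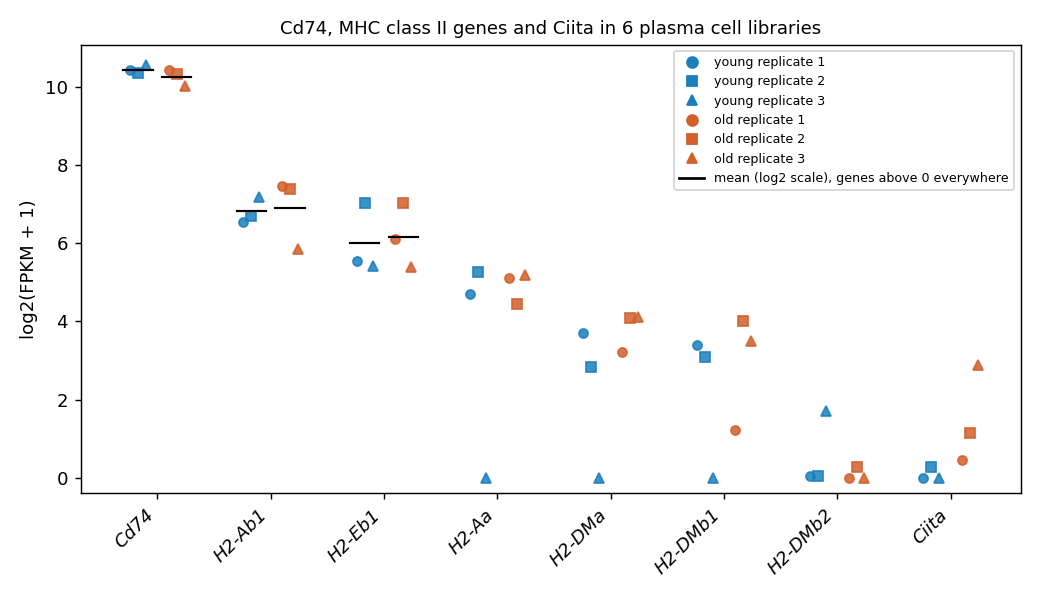
FPKM of the 8 genes in each library as log2(FPKM + 1), young in blue and old in orange, with a marker shape per replicate and a bar at the group mean for genes above 0 in every library. Cd74 lies between 1028 and 1496 FPKM everywhere, whereas H2-Aa, H2-DMa and H2-DMb1 are listed at 0 in young replicate 3 alone.

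Read per length, the order of mean levels over the 6 libraries was Cd74 (1311 FPKM), H2-Ab1 (123), H2-Eb1 (75.6), H2-Aa (25.3), H2-DMa (9.81), H2-DMb1 (7.27), Ciita (1.37) and H2-DMb2 (0.422). Cd74 was above H2-Ab1, and H2-Eb1 above H2-Aa, in 6 of 6 libraries with ranges that did not overlap. The order of H2-Eb1 and H2-Aa depends on gene length, with merged exons of 1944 and 3798 bases. In estimated fragments H2-Aa was above H2-Eb1 in young replicate 1 (2336 against 2164) and old replicate 3 (3606 against 2130), and below it in the other libraries. The ranges of the other neighbours in that order overlapped. H2-Ab1 was above H2-Eb1 in 5 libraries and below it in young replicate 2, and H2-DMa was above H2-DMb1 in 4 and below it in 1. The 3 chain genes summed to 163, 270 and 186 FPKM in young and to 276, 316 and 133 in old libraries. Cd74 was 4.09 to 8.42 times that sum, with 8.42, 4.81 and 8.06 in young and 5.02, 4.09 and 7.75 in old libraries. It made up 78.8% to 88.8% of the summed FPKM of all 8 genes. The H2-Aa to H2-Ab1 ratio was 0.273 and 0.361 in young replicates 1 and 2 and 0.193, 0.124 and 0.619 in the old libraries, so the alpha chain message was below that of its beta partner in each of the 6 libraries.

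H2-DM, the heterodimer that removes the invariant chain peptide, was represented by 1 alpha and 1 of the 2 beta genes. H2-DMa (chromosome 17, 34119541 to 34139101, plus strand) was at 12.0, 6.06 and 0 FPKM in young and at 8.36, 16.1 and 16.4 in old libraries. H2-DMb1 (34153072 to 34160230, plus strand) was at 9.57, 7.47 and 0 in young and at 1.34, 14.9 and 10.3 in old libraries. As for H2-Aa, the value of 0 was that of young replicate 3, and the groups overlapped for both genes. The log2 differences were 1.64 ± 0.97 for H2-DMa and 0.74 ± 1.13 for H2-DMb1 (SE, limma adjusted p = 0.844 and 0.916), and without young replicate 3 they were 0.56 and -0.34. Exons of H2-DMa share 360 bases with Brd2 on the opposite strand. Brd2, a bromodomain gene, was at 58.2 to 85.2 FPKM in every library, young replicate 3 included, and whether counting used strand is not given in the sources used here.

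H2-DMb2 (34143307 to 34151555, plus strand), the second beta gene, was near absent outside young replicate 3. It was at 0.0274, 0.0264 and 2.26 FPKM in young and at 0, 0.214 and 0 in old libraries. The first 2 values stand for about 1 fragment each and that of young replicate 3 for about 89. The library that listed H2-DMb1 at 0 was thus the one with the highest H2-DMb2. Of the 75-base windows of H2-DMb1 transcripts, 15.8% occur in H2-DMb2 transcripts, and 14.6% of those of H2-DMb2 occur in H2-DMb1 transcripts. Fragments from those stretches cannot be assigned to 1 copy, so both genes' values are uncertain. The size of that uncertainty was not measured. With a mean of 0.422 FPKM, H2-DMb2 was under the minimum mean of 1 FPKM and was not tested.

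Ciita was at the low end of these genes in each library. It was at 0, 0.206 and 0 FPKM in young and at 0.372, 1.22 and 6.41 in old libraries. It lies on chromosome 16 (10480059 to 10528418, plus strand), and its exons share 329 bases with Dexi on the opposite strand, which was at 0 to 5.57 FPKM. The 3 old values lay above the 3 young ones, and old replicate 3 was at least 5 times the others. Groups did not overlap, with old above young, for 8.78% of the 10687 genes tested, and Ciita was the 1 member of which this was so. Ciita passed the filter on low values through the old libraries alone, so its difference is no support for a change. The log2 difference was 1.41 ± 0.87 (SE, limma adjusted p = 0.844). Without old replicate 3 its mean fell under the filter.

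Cells of other types were looked for beside these values, because a sort for CD138 can hold a few. In bulk samples more cells of a type and more RNA per cell cannot be told apart. In old replicate 3, where Ciita was 6.41 FPKM, Itgax, the dendritic cell integrin CD11c, was 8.18 against at most 0.152 in the other libraries. Clec10a and Cd209a, lectins of dendritic cells that were chosen here after their values were seen, were 10.98 and 7.71 there against at most 0.0108 and 0.0206. Of the other conventional dendritic cell markers, Clec9a, Naaa, Sirpa and Batf3 were also highest there, at 2.58, 4.22, 25.3 and 0.151 FPKM. Xcr1, Fscn1, Ccr7, Flt3, Cd24a and Kmo were not. Xcr1 was 0.0583 against 5.55 in old replicate 1, and Fscn1 was at its lowest of the 6 libraries at 0.598. Ccr7 was listed at 0, and Flt3 was 14.6 against 21.7 in young replicate 3. Cd24a was 217.6 against 333.1 in old replicate 2, and Kmo 5.14 against 13.87 in young replicate 1. The monocyte genes Csf1r, Adgre1 and Lyz2 were also highest there, at 8.97, 2.75 and 516 FPKM. Zbtb46, a dendritic cell factor, was at 6.445 in young replicate 3 and 5.415 in old replicate 3, and at most 1.84 elsewhere. The part of such cells in the Ciita values was not tested. The members did not go 1 way in old replicate 3. Cd74, H2-Ab1 and H2-Eb1 were each at their lowest there and H2-DMb2 was at 0, while H2-DMa was at its highest (16.4 FPKM). H2-Aa, at 35.2, was exceeded only in young replicate 2 (37.3), and H2-DMb1, at 10.3, only in old replicate 2 (14.95).

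The 14 conventional dendritic cell markers in the table summed to 184 to 275 FPKM in young and 230 to 375 in old libraries, with 5 to 7 of them at 0 in each young library and 5, 3 and 1 in the old ones. The highest sum was that of old replicate 2, at 375, against 302.5 in old replicate 3. Most of that sum was Cd24a, at 148 to 333 FPKM, which other marrow cells also make. The 14 monocyte and macrophage markers summed to 187 to 432 FPKM in young and 314 to 770 in old libraries, and C1qa, a macrophage complement gene, was above 1 FPKM in young replicate 3 alone, at 15.6. The 13 plasmacytoid dendritic cell markers summed to 701 to 1214 and 812 to 1053. Of these, Siglech was at 14.9, 0.406 and 16.0 FPKM in young and 0.00955, 0.320 and 6.21 in old libraries, and Cox6a2 was at 0, 12.1 and 0 against 119, 24.2 and 48.4. Neutrophil markers summed to 464 to 577 and 289 to 1371, with 1371 in old replicate 2 and 971 in old replicate 3. Elane was highest in old replicate 3, at 220, whereas S100a9 was at its lowest there, at 40.2. T and NK cell markers summed to 18.7 to 33.1 and 12.4 to 61.8, erythroid markers to 29.9 to 310 and 49.1 to 893, and stromal and endothelial markers to 8.36 to 20.95 and 15.0 to 17.7.

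B cell genes were present at levels well below that of Cd74. Pax5, the B cell identity factor, was at 2.77, 7.26 and 2.45 FPKM in young and at 2.08, 2.03 and 2.44 in old libraries. Ms4a1, the gene of CD20, was at 2.68, 6.15 and 1.41 in young and at 25.3, 15.5 and 6.31 in old libraries. Cd22 was at most 5.69 in any library. The 19 B cell markers other than Ciita summed to 921 to 1061 FPKM in young and 647 to 1200 in old libraries. Of that sum 73.6% to 86.6% was Cd79a, Cd79b, Pou2af1 and Fcrla, which plasma cells can also express, and the other 15 genes together were at 142 to 169 FPKM in young and 170 to 217 in old libraries. Whether B cells give part of the class II values was not tested.

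**Figure D2:**
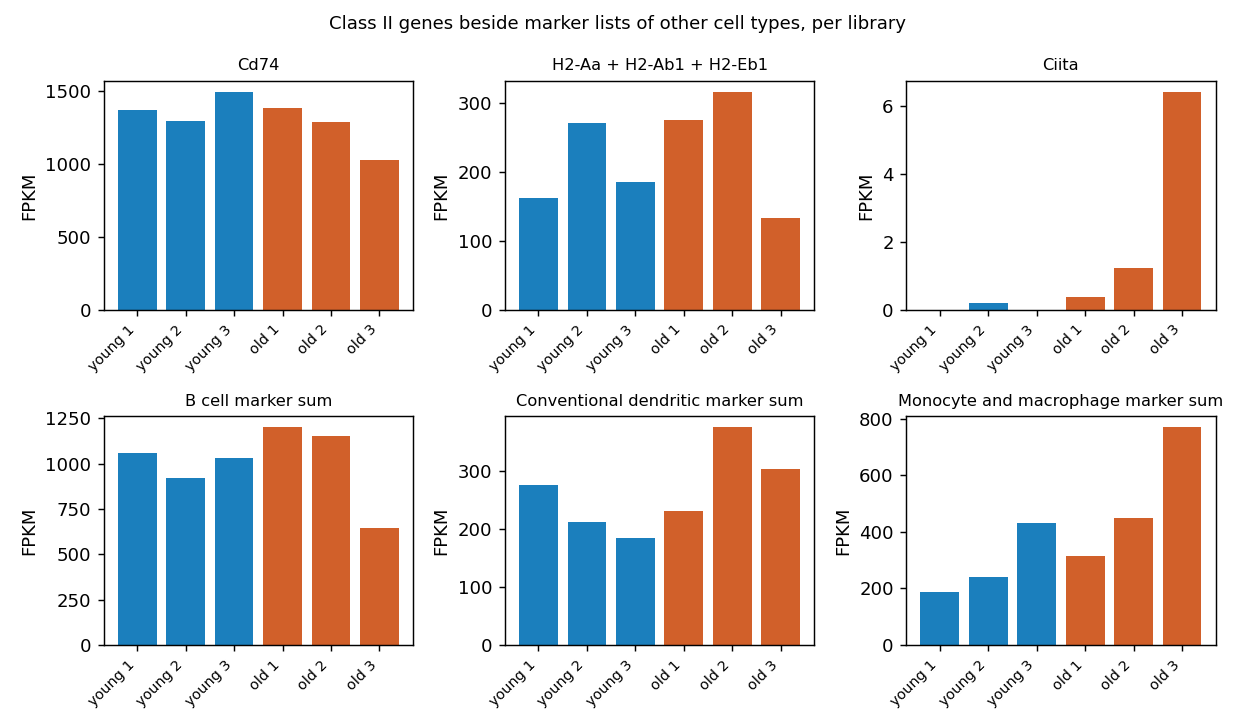
Bars from 0 give FPKM per library, young in blue and old in orange, for Cd74, for the sum of the 3 chain genes, for Ciita and for the summed markers of B cells (19 genes), conventional dendritic cells (14) and monocytes and macrophages (14). Old replicate 3 has the highest Ciita and monocyte sum and the lowest Cd74, chain and B cell sums.

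The factors that carry Ciita to class II promoters were present at moderate level. Rfx5, the DNA-binding RFX subunit, was at 15.5, 6.29 and 12.8 FPKM in young and at 4.01, 8.29 and 14.2 in old libraries. Its partners Rfxap and Rfxank were at 10.4, 5.93 and 0.0206 and at 4.35, 20.3 and 0 when young, and at 22.2, 7.53 and 6.89 and at 8.33, 13.5 and 8.52 when old. Both were lowest in young replicate 3, the library that listed 10.4% of genes of 5 to 50 FPKM at 0.

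The NF-Y subunits Nfya and Nfyb were at 9.88 to 21.6 and 14.5 to 24.2 FPKM over the 6 libraries, and Nfyc at 3.53 to 94.3. Creb1 was at 3.89 to 19.6. Of the 12 promoter factors tested 6 had a positive and 6 a negative log2 difference, and limma called 0 at an adjusted p under 0.05, against 0% of the 10687 genes (0 called, 632 with an unadjusted p under 0.05). The list median was -0.01, beside 0.23 over all genes, and was 0.35 without young replicate 1. Nlrc5, the class I relative of Ciita, was at 21.97, 12.4 and 9.48 FPKM in young and at 33.6, 28.0 and 23.0 in old libraries, with no overlap and a limma adjusted p = 0.839. Groups did not overlap in either direction for 12.2% of all genes tested.

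Prdm1, whose product represses Ciita, was expressed in every library, at 51.6, 142 and 154 FPKM in young and 106, 74.7 and 45.1 in old libraries. The groups overlapped. Old replicate 3, with the highest Ciita, had the lowest Prdm1, and also the lowest Irf4, Xbp1 and Jchain. Young replicate 1 had the next lowest Prdm1 and listed Ciita at 0. A link between Prdm1 and Ciita levels was not tested. Irf4, a plasma cell factor, was at 151 to 348 FPKM. Factors that drive Ciita in other cells were present too: Irf8 at 18.1 to 57.5, the myeloid and B cell factor Spi1 at 10.5 to 30.6 and Ets1 at 6.29 to 36.3. Spib was at 8.04, 15.0 and 0.265 in young and 0.0652, 2.145 and 2.86 in old libraries, and the deacetylase gene Hdac2 at 3.30 to 22.7. Of 16 regulators tested 4 had a positive and 12 a negative log2 difference, with 0 called by limma. The list median of -0.25 was -0.07 without young replicate 3 and -0.02 without replicate 3 of both groups.

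**Figure D3:**
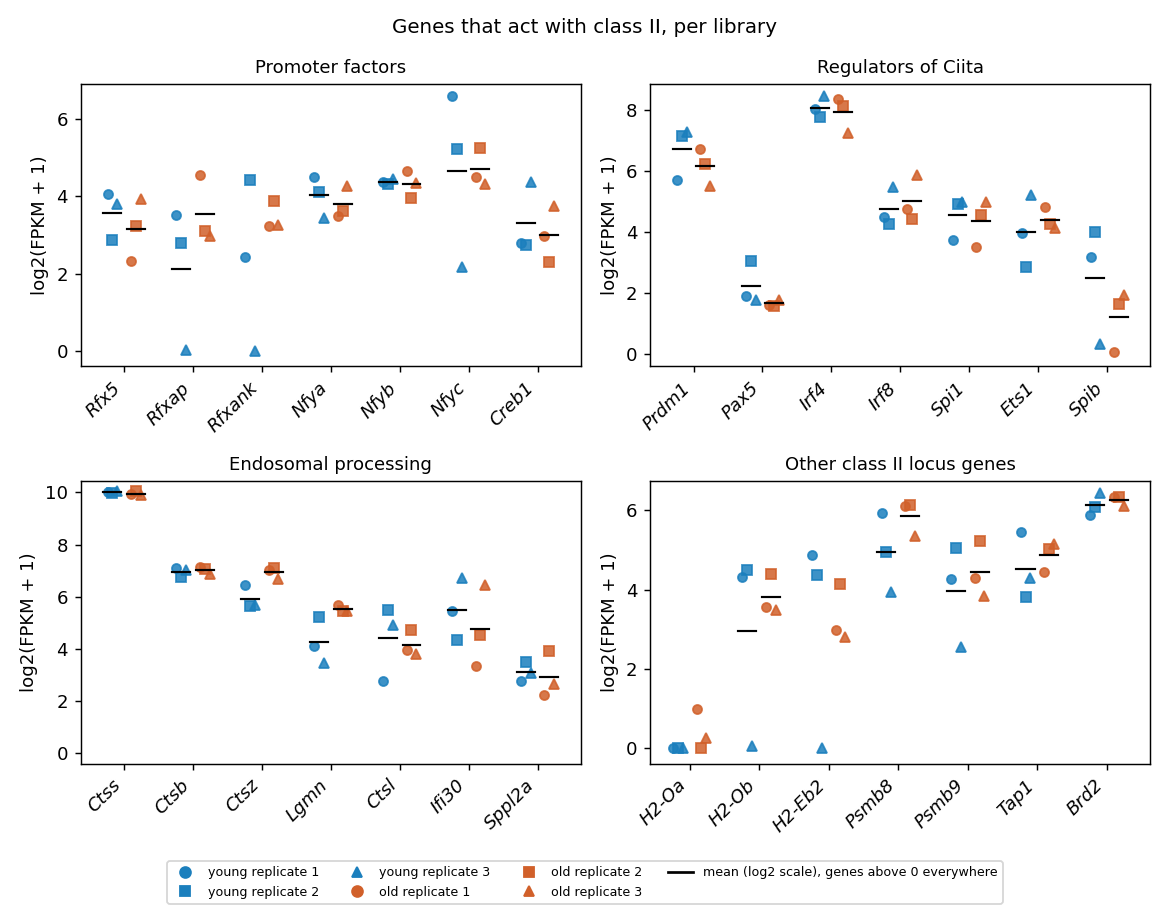
Log2(FPKM + 1) per library for promoter factors, regulators of Ciita, endosomal processing genes and other genes of the class II locus, young in blue and old in orange, with a bar at the group mean for genes above 0 in every library. Ctss lies between 957 and 1061 FPKM everywhere, while Rfxap, Rfxank, H2-Ob and H2-Eb2 drop to 0 or near it in young replicate 3.

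Endosomal enzymes were mixed. Ctsz, the carboxypeptidase cathepsin Z, was at 85.2, 49.0 and 49.98 FPKM in young and at 131, 135 and 101 in old libraries. Lgmn, the asparagine endopeptidase that starts the cutting of the invariant chain, was at 16.3, 36.0 and 10.1 against 50.8, 42.6 and 42.5. For both genes the old values lay above the young ones, as they did for 8.78% of all genes tested. These were the 2 genes of smallest limma p among the 13 processing genes tested. Their log2 differences were 1.02 ± 0.35 and 1.26 ± 0.50 (SE, limma adjusted p = 0.736 and 0.829), so neither passed the test. Ctss had a log2 difference of -0.07 ± 0.23 (SE, limma adjusted p = 0.980), and 0.11 under quantile normalization.

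Ctsl, which takes the place of cathepsin S in thymic epithelium, was at 5.84 to 44.5 FPKM. Ifi30, the endosomal thiol reductase, was at 42.4, 19.2 and 103 FPKM in young and at 9.25, 21.9 and 86.7 in old libraries, highest in replicate 3 of both groups. Sppl2a, the protease that clears the last membrane stub of Cd74, was at 3.65 to 14.3. Of 13 processing genes tested 6 had a positive and 7 a negative log2 difference, with 0 called and a median of -0.04, which leaving out 1 library moved to between -0.06 and 0.145. In the trafficking and turnover list 7 of 14 had a positive difference, with 0 called and a median of 0.06, which leaving out 1 library moved to between -0.13 and 0.225. There March1, the ubiquitin ligase that removes class II from the surface, was at 4.32, 0 and 0 FPKM in young and at 3.14, 5.33 and 4.51 in old libraries. Its relative March8 was at 2.735 to 7.38 and the tetraspanin gene Cd82 at 13.4 to 44.7.

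Other genes of the class II locus on chromosome 17 were present too, and H2-Ob and H2-Eb2 were also at or near 0 in young replicate 3. H2-Ob, the beta chain of the H2-DM inhibitor H2-DO, was at 18.9, 21.7 and 0.0264 FPKM in young and at 10.9, 19.98 and 10.2 in old libraries. H2-Eb2, a relative of H2-Eb1, was at 28.6, 19.7 and 0 against 6.92, 16.7 and 5.97. H2-Oa, the alpha partner of H2-Ob, was listed at 0 in each young library and reached 0.963, 0 and 0.197 FPKM in old replicates 1 to 3, so H2-Ob was present with very little of its partner's message. Psmb8, an immunoproteasome subunit gene of the same region, was at 14.4 to 60.7 in young and 39.7 to 69.9 in old libraries. Limma called 0 of the 8 tested. Their log2 differences were positive in 8 of 8 and above the median of all genes (0.23) in 5. Mean FPKM was nonetheless lower in old libraries for H2-Eb2, Btnl2 and Tap2, at 0.612, 0.732 and 0.974 times the young mean. H2-Eb2 and Btnl2 were listed at 0 in young replicate 3. The list median of 0.42 was 0.11 without young replicate 3, 0.19 without old replicate 2, and 0.74 and 0.90 without young replicates 1 and 2.

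The invariant chain also serves as a receptor for the cytokine MIF, with CD44 and CXCR4 as partners. Cd44 was at 67.5 to 94.8 FPKM in young and 72.5 to 124 in old libraries, and Cxcr4 at 33.6 to 68.2 and 25.9 to 73.8. Mif itself was at 31.1, 88.6 and 1.63 in young and 22.1, 47.7 and 129 in old libraries. Cxcr2, another partner and a neutrophil gene, stayed at or under 0.286 FPKM in young libraries and had 0.01235, 2.19 and 4.895 in the old ones. Limma called 0 of the 6 tested, and 4 had a positive difference. The list median of 0.34 rested on single libraries: it was -0.03 without young replicate 3, 0.12 without old replicate 1 and 0.74 without young replicate 2.

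Costimulation genes that go with antigen presentation differed widely in level. Cd274, the gene of PD-L1, was at 25.3 to 71.7 FPKM over the 6 libraries. Cd86 was at most 0.386 FPKM in any library, and Cd80 was at 0, 6.28 and 0 in young and at 14.9, 0.352 and 0 in old libraries. Cd40 was at 11.5, 0 and 0.702 against 4.54, 3.12 and 2.10. Icosl, the ligand of ICOS, was at 1.64 to 76.7 in young and 7.64 to 23.6 in old libraries, Pdcd1lg2 at 7.46, 0.356 and 0 against 6.82, 9.54 and 8.11, and Cd48 at 2.05 to 45.4 against 22.4 to 60.0. Limma called 0 of 7 tested, and 4 had a positive difference. The list median of 0.52 was 0.045 and 0.11 without young replicates 1 and 2, 0.23 without young replicate 3, and -0.07 without old replicate 1. It was -0.13 with the minimum mean raised to 5 FPKM and -0.08 under quantile normalization, so no direction is given.

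**Figure D4:**
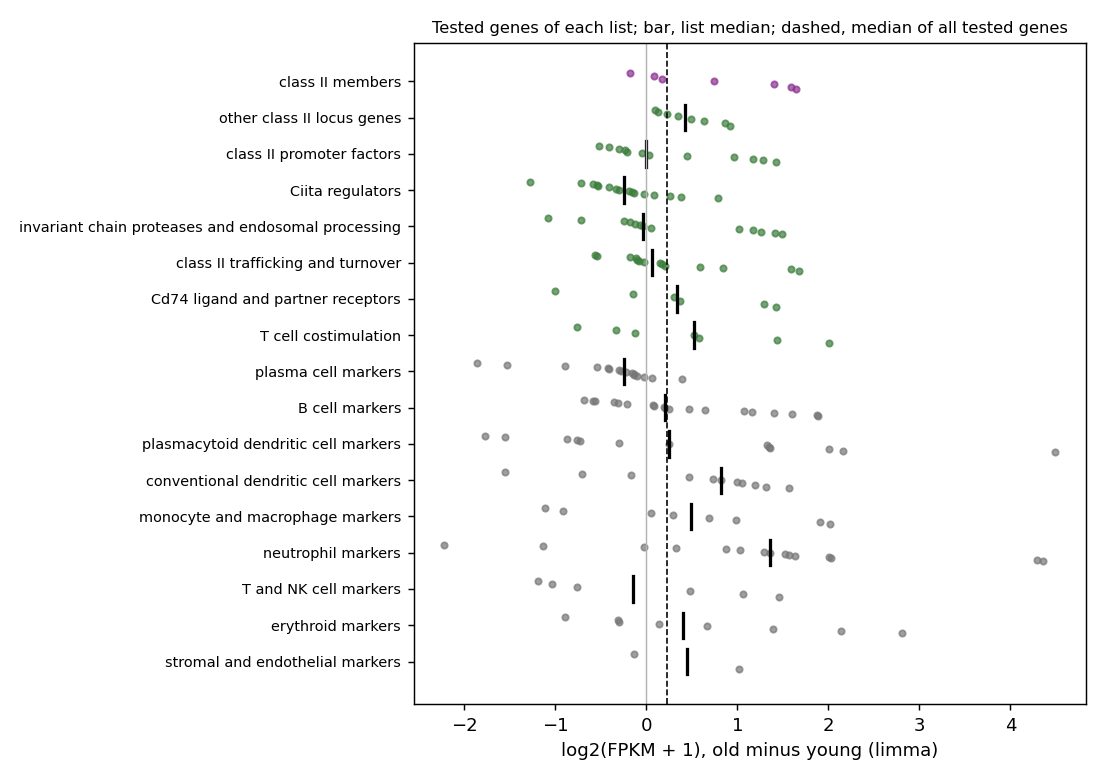
Each point is the log2 difference, old minus young on the log2(FPKM + 1) scale, of 1 tested gene, by list, with a bar at the list median (not drawn for the class II members, of which 7 of 8 were tested) and a dashed line at 0.23, the median of all tested genes. Limma called 0 of the points, and those of Cd74, H2-Ab1 and H2-Eb1 lie closest to 0 among the members.

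Of the 7 members tested limma called 0, against 0% of all genes, with adjusted p between 0.844 and 0.987, and 0 had an unadjusted p under 0.05, against 5.91% of all genes. The 3 most abundant members, Cd74, H2-Ab1 and H2-Eb1, were above 0 in every library. The log2 differences of over 1 in H2-Aa and H2-DMa came with young replicate 3 at 0. That of Ciita came with young replicates 1 and 3 at 0, and was 1.36 when either of these was left out. Its highest value was that of old replicate 3, at 6.41 FPKM.

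Over the 6 libraries, the genes most like Cd74 by Pearson correlation of log2(FPKM + 1), among 5142 genes with a mean of at least 10 FPKM, were Snx19 (r = 0.996), Klf13 (0.989), Cib2 (0.985), Pdcd6 (0.985), Lats1 (0.979), Zfp106 (0.977), Atp5sl (0.976), Cd2bp2 (0.976), Fndc3a (0.966) and Gid4 (0.958). All 10 were lowest in old replicate 3 and 9 were highest in young replicate 3, as was Cd74. The 5 genes most like H2-Ab1 were Cdk2ap2 (0.960), Slamf7 (0.959), Cep250 (0.958), Tmem154 (0.945) and Ctla4 (0.942), and 5 of 5 were lowest in old replicate 3. Slamf7, a plasma cell surface receptor gene, was at 215, 254 and 252 FPKM in young and at 309, 334 and 153 in old libraries. These are the highest of 5142 correlations over 6 points and are given as a description.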

How the data were processed

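The 6 libraries were deposited as 1 table of FPKM values. The authors made these FPKM values with tools of which the submitters' processing notes name bcl2fastq 2.17, STAR and DESeq2, and the builds GRCm38 and mm10, without roles. The counter, annotation release and strand setting are not given in the sources used here. Per the labels' protocols, a stranded SMARTer Pico kit was used on 5 ng of total RNA. Gene identifiers matched GENCODE M21 (GRCm38) for 99.9% without the version and 76.9% with it; positions, exon lengths and overlaps are from it. Fragments behind a value were estimated from the most common low FPKM times exon length and are approximate.

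Old and young were compared by limma 3.58.1 (trend option, R 4.3.3) on log2(FPKM + 1) for 10687 genes with a mean of at least 1 FPKM. Tests were two-sided, with Benjamini-Hochberg adjustment over all tested genes and calls at 0.05. The fit was run on simulated data with normal noise and without the zeros of single libraries, so that run does not cover genes with such zeros. The scale understates changes of low genes. Same-numbered samples showed no shared deviation (correlations of -0.0344, 0.0203 and -0.00412), so the main fit has no pairing. Python 3.11.15, pandas 2.3.3 and Biopython 1.88 were used for tables and alignment. Reads amplified from little RNA are not independent molecules.

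The members and lists were chosen with earlier results of these data known. Named genes were the 8 members, fixed genes of each list, the 2 of smallest p per pathway list, and the genes most like Cd74 (10) and H2-Ab1 (5). Brd2 and Dexi, which overlap members, and Cd24a, Pou2af1, Fcrla, Cd274, S100a9, Btnl2 and Tap2 were named after their values were seen. So were the dendritic cell markers Clec10a, Cd209a, Xcr1, Fscn1, Ccr7, Clec9a, Naaa, Sirpa, Batf3 and Kmo. Lists covered class II locus genes, promoter factors, Ciita regulators, processing, trafficking, Cd74 partners, costimulation, and markers of plasma, B, dendritic, monocyte, neutrophil, T and NK, erythroid and stromal cells. Alternatives were pseudocount, filter, scaling, moderation, weights, replicate block and leaving out libraries. The values of 1 marker gene are not reported here.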

Additional observations from a re-analysis of the deposited data

How the results depend on the processing

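Limma called 0 genes of 10687 in the fit described, and 1 under quantile normalization, robust moderation or array weights; leaving out 1 library gave 0 to 7 calls, 7 without young replicate 3 and 1 without young replicate 1. Members called stayed at 0 and pathway genes called stayed at 0 under all 15 alternatives, and the smallest adjusted p of any member under any of them was 0.517 (limma). With the replicate number as a replicate block, 0 genes and 0 members were called. Over all genes the median difference was 0.23, and the median-ratio and quantile alternatives gave 0.135 and -0.01. Signs turned for Cd74 (0.013 under quantile normalization and 0.004 with replicate 3 of both groups left out, an alternative chosen after seeing the data), for H2-Aa and H2-DMb1 (-0.21 and -0.63 with both left out), for H2-Ab1 (-0.01 under median-ratio scaling) and for Ctss (0.11 under quantile normalization). Leaving out 1 library, log2 differences ranged from -0.27 to -0.05 for Cd74, -0.074 to 2.56 for H2-Aa, -0.19 to 0.61 for H2-Ab1, -0.25 to 0.69 for H2-Eb1, 0.56 to 2.40 for H2-DMa and -0.34 to 1.58 for H2-DMb1. The mean level of Cd74 stayed between 1274 and 1368 FPKM with 1 library left out, and was 1220 under median-ratio scaling. Ciita had no value without old replicate 3 or at a mean of at least 5 FPKM. Of 105 recomputed list medians 1 moved by more than the spread between libraries. A change of sign could stay within that spread. The costimulation median did so, at 0.52 in the main fit and -0.13 at a minimum mean of 5 FPKM. The cause of the turned signs was not tested. Zeros limit Ciita and H2-DMb2, and values of a few fragments H2-DMb2.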
